A study of Mus musculus with 19 samples.

Results

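Genes of cyclic AMP (cAMP) and G protein signalling were examined as sources of extrachromosomal circular DNA (eccDNA) in mouse cervical spinal cord. They were chosen by symbol alone, as every row of the table whose name belongs to the Adcy, Pde, Akap, Prkac, Prkar, Gna, Gnb, Gng or Rgs series, which gave 50 of 8336 genes (0.600%). The rule reads no value, but each of the 50 has a circle in at least 1 library, and family genes without a row are left out. The ALS group held 9 males of B6.Cg-Tg(SOD1*G93A)1Gur/J, taken at 18 to 21 weeks of age once motor symptoms were scored. Their transgene is a constantly overexpressed, mutated human SOD1. The control group held 10 C57BL/6J males of matched age that carried no transgene, so the mutation, the human protein and the transgene insertion cannot be told apart. Both groups went through the same steps, in which 400 ng of DNA per animal was treated with exonuclease V for 7 days against linear DNA, and what remained underwent rolling circle amplification (RCA) over 48 h. Whole cervical cord was used, so the cells that gave rise to a circle are not known.

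Each value describes the circles that overlap a gene. Split reads, which cross the junction of a circle, were summed per gene and multiplied by the longest gene length over the length of the gene, which gives the produced per gene circles (PpGC). The table holds log2(PpGC + 1), and a value of 0 means that no circle with at least 2 split reads overlapped the gene. Split reads were recovered here by undoing the length factor. These values describe DNA circles and say nothing of transcripts or proteins.

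Signalling through this system starts at G protein-coupled receptors. An activated receptor releases the alpha subunit of a G protein from its beta and gamma subunits, and RGS proteins speed the return to the resting state. Adenylate cyclases make cAMP under the control of alpha subunits, and phosphodiesterases (PDEs) break cyclic nucleotides down. Protein kinase A (PKA), made of catalytic and regulatory subunits, answers to cAMP, and A-kinase anchors hold it at defined places in the cell. In neurons the pathway is known for its part in excitability and synaptic plasticity.

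By class, the 50 genes comprised 6 adenylate cyclases, 15 PDEs, 5 anchors, 3 PKA subunits, 6 alpha, 1 beta and 3 gamma subunits, 8 RGS proteins, and 3 genes that share a name prefix but belong to none of these classes, namely Adcyap1r1, Pde4dip and Rgs7bp. The PDEs divided into 6 that prefer cAMP, 6 that take both cyclic nucleotides and 3 of the cGMP series. Circles on these genes were found mainly in ALS libraries. The mean was higher in ALS for 47 of the 50 genes, and the same held for 86.5% of all genes in the table. A circle in ALS libraries only was found for 39 of the 50, against 75.0% of all genes. A further 8 had circles in both groups, and 3 had them in control libraries only.

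Adcy2, which encodes a membrane adenylate cyclase of the brain, Pde4b, a cAMP-specific PDE, and Pde10a, a PDE of both cyclic nucleotides best known from the striatum, were called higher in ALS. To be called, a gene needed means more than 1 log2 unit apart and p below 0.01 in the methods' t-test, run two-sided on each gene of the table. It was met by 3 of 50 genes (6.0%), beside 1.33% of all 8336 genes. Of these 3, only Adcy2 kept its call without gene length scaling, only Pde10a with the load as covariate, meaning the number of all genes with a circle in a library, and none with a pseudocount of 100. With the load as covariate the difference was 6.63 for Adcy2, against 5.43 without it, and -0.90 for Pde4b, against 4.36. No gene of the group was called lower, beside 0.0% of all genes. Among genes longer than 200 kb the call was met by 3 of 15, beside 9.61% of the 1030 genes of that length in the table. At an exact permutation p under 0.05, 7 of 50 had a higher mean in ALS (14.0%), beside 3.72% of all genes. For a gene with circles in ALS libraries only, this p counts only the ALS tail and depends only on the number of those libraries. No gene of the group passed Benjamini-Hochberg adjustment over the whole table, and the lowest adjusted value was 0.321 with the methods' t-test and 0.487 with the exact permutation test. Over all genes, 6 passed the adjustment with the methods' t-test, while 0 did with the exact permutation test, in which 310 had a higher ALS mean at an unadjusted p under 0.05. The median difference was 1.41 over the 50 genes and 1.19 over all genes.

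**Figure D1:**
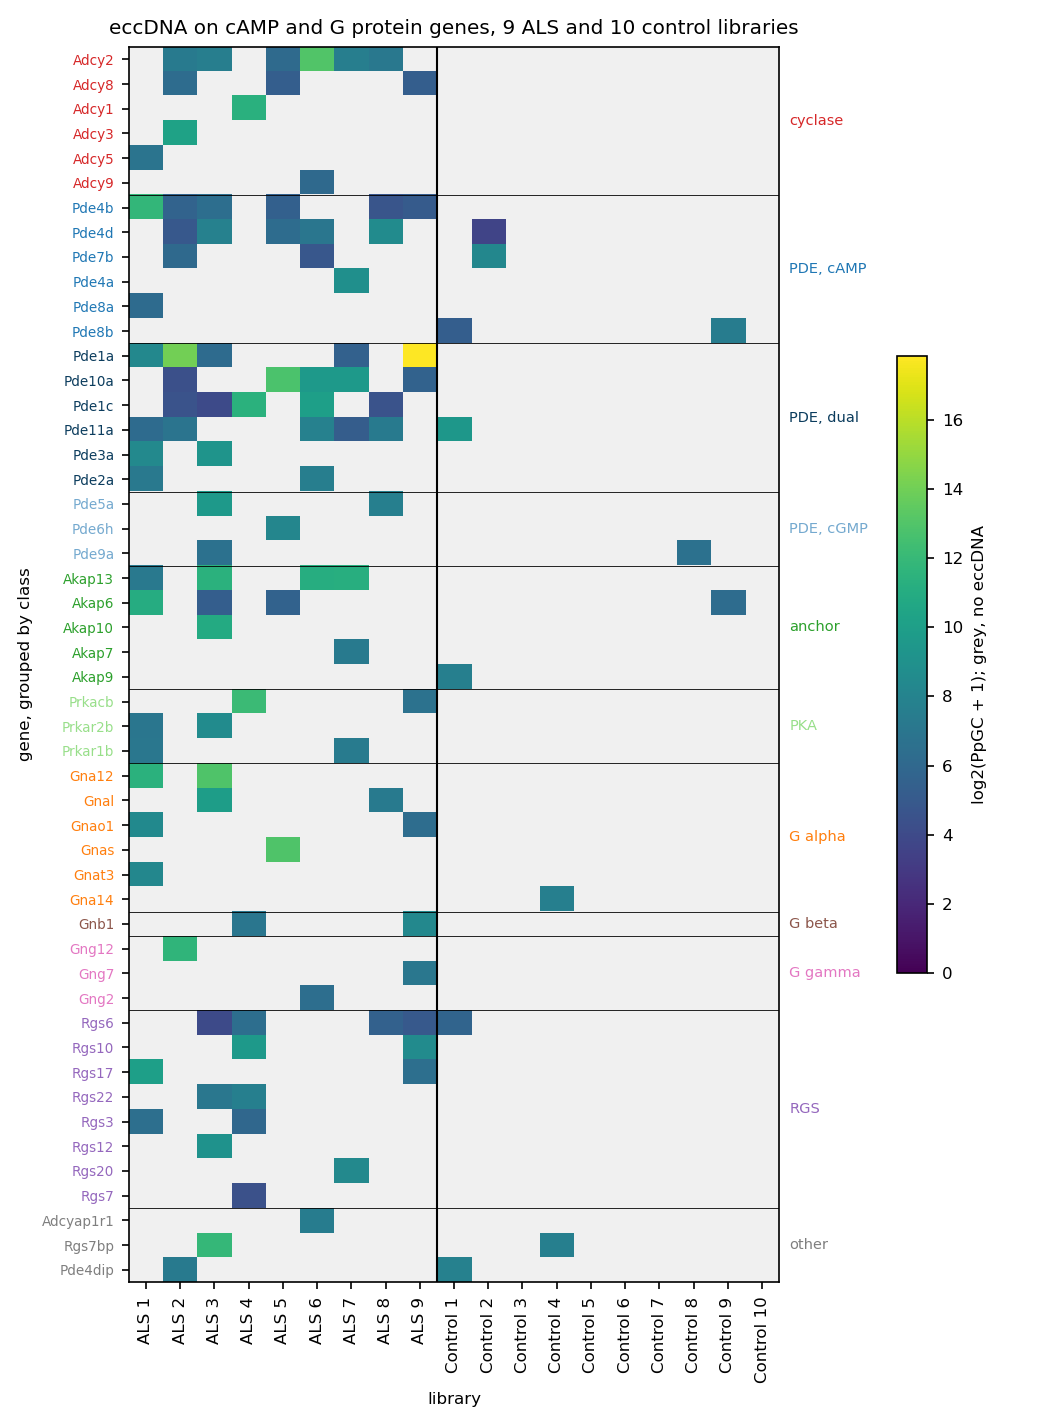
Level of eccDNA (log2(PpGC + 1), colour) on each of the 50 genes (rows, by class) in the 9 ALS and 10 control libraries (columns), with grey for no circle. The ALS side holds 102 coloured cells and the control side 12, and the rows with 5 or 6 ALS libraries are Adcy2 and 6 PDE genes.

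The number of these genes with a circle ranged from 8 to 18 in ALS libraries (11.3 ± 3.54, SD, n = 9) and from 0 to 5 in control libraries (1.20 ± 1.62, SD, n = 10). The groups did not overlap, and 5 of the 10 control libraries had none. Libraries also differed in their load, with a mean of 1301 ± 459 (SD, n = 9) in ALS and 243 ± 208 (SD, n = 10) in controls. The ratio of group means was 9.44 for the signalling genes and 5.35 for the load, and without Control 1 the ratios were 14.6 and 6.84. As a share of the load, the signalling genes made up 0.917% ± 0.284 (SD, n = 9) in ALS and 0.365% ± 0.467 (SD, n = 10) in controls, and these shares overlapped. Pooled over libraries, 102 of 11710 gene and library pairs in ALS (0.871%) and 12 of 2434 in controls (0.493%) belonged to the group. The highest share was 1.59% in ALS 6 (95% Wilson interval 0.887 to 2.82). With the smallest ALS load, 694 genes, ALS 6 had circles on 11 of the signalling genes, while Control 1, with the largest control load of 723 genes, had circles on 5. In the 5 control libraries without any, a count of 0 allows a share of up to 1.88% to 5.26%. These limits and intervals cover counting error only.

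**Figure D2:**
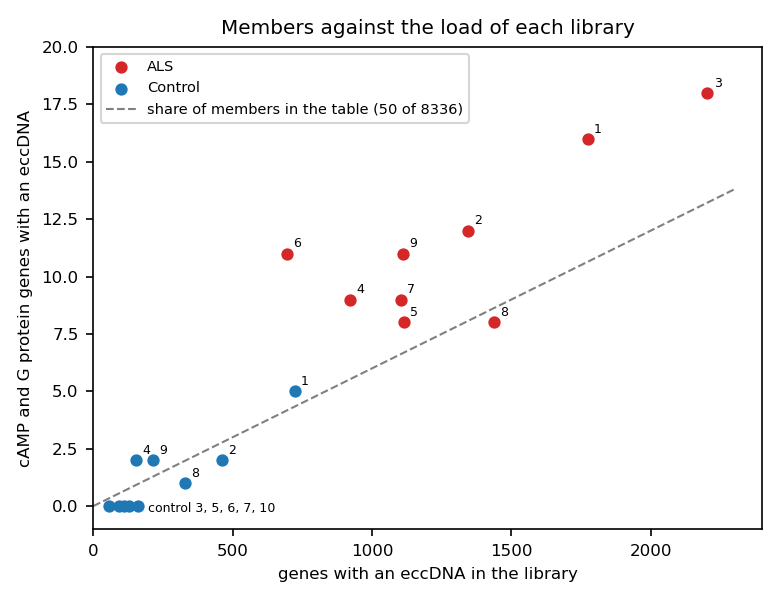
Number of cAMP and G protein genes with a circle (vertical axis) against all genes with a circle (horizontal axis) in each library, numbered by replicate, with red for ALS and blue for control. The dashed line is the 0.600% share of these genes in the table, and ALS 6 with 11 genes lies farther above it than Control 1 with 5 at a similar load.

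Among the 6 cyclases no control library had a circle, and 75.0% of all genes likewise had circles in ALS libraries only. Adcy2 (GRCm38 chr13:68620043-68999541, minus strand, 379 kb) had circles in 6 of 9 ALS libraries, with 13 split reads in ALS 2, 17 in ALS 3, 6 in ALS 5, 714 in ALS 6, 17 in ALS 7 and 12 in ALS 8. ALS 1, ALS 4, ALS 9 and all 10 controls were at 0, so that the groups overlapped only at 0. The mean log2 PpGC was 5.43 ± 4.51 (SD, n = 9) in ALS, and the difference from controls was 5.43 (exact permutation p = 0.00310, adjusted over all genes 0.487). ALS 6 gave 91.7% of the split reads, and the other 5 libraries lay within 6 to 17. ALS 4 had circles on only 4 genes of chromosome 13, against 32 to 111 in the other ALS libraries, and its part in the zero of Adcy2 there was not tested.

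The start of Adcy2 was not on any of these circles. The antisense gene Gm35161 (chr13:68998793-69031550) covers the first 749 bases of Adcy2 and the sequence before it. It was at 0 in all 6 ALS libraries with Adcy2 circles, while Control 9 had 2 split reads on it and none on Adcy2. The 250 bases before the RefSeq start of Adcy2 (GRCm38.p6 chr13:68999542-68999791, minus strand) lie within Gm35161 and are shown because the counts place every ALS circle of Adcy2 downstream of them. Capitals mark CG, of which there are 23, and 13.3% of the 32851 promoter windows in the RefSeq table hold as many or more over the same length.
Adcy2 upstream: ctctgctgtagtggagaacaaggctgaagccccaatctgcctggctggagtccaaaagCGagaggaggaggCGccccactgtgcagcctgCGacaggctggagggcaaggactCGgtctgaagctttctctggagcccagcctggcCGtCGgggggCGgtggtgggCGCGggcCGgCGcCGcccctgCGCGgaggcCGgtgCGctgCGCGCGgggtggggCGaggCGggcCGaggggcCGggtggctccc
The GC content of this stretch is 73.2%, and that of the whole gene is 42.0%.

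The other cyclases gave fewer circles. Adcy8, a calcium-stimulated cyclase, had 4 split reads in ALS 2 and 2 each in ALS 5 and ALS 9, with a difference of 1.89 (exact permutation p = 0.0867). Gm21798, which overlaps Adcy8 in part, also had 2 split reads in ALS 5, and whether these are the same reads is not known. Adcy1, Adcy3, Adcy5 and Adcy9 each had a circle in 1 ALS library, with 66, 23, 4 and 2 split reads. The median difference of the 6 cyclases was 1.20, close to the 1.19 of all genes.

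The PDEs held 43 of the 102 ALS pairs of a gene and a library (42.2%) and 6 of the 12 control pairs. Among those that prefer cAMP, Pde4b (chr4:102087543-102607259, plus strand, 520 kb) had circles in 6 ALS libraries and in no control. Its split reads were 421 in ALS 1, 6 in ALS 2, 10 in ALS 3, 5 in ALS 5, 3 in ALS 8 and 4 in ALS 9. Apart from ALS 1, which gave 93.8% of them, all lay at 10 or below. Its mean was 4.36 ± 3.88 (SD, n = 9), which is also the difference (exact permutation p = 0.00310). With the load as covariate the difference of Pde4b was -0.90 (permutation p = 0.622), so its direction turned, and that of Adcy2 was 6.63 (permutation p = 0.0277). Only ALS 6 had a load below that of the highest control, so load and group were nearly separate.

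Pde4d (chr13:108449948-109953461, 1504 kb), the longest gene of the group, had circles in 5 ALS libraries and 1 control. It had 10 split reads in ALS 2, 78 in ALS 3, 26 in ALS 5, 43 in ALS 6 and 135 in ALS 8, and 4 in Control 2. The lowest ALS value above 0 was higher than the value of Control 2, and the difference was 3.49 (exact permutation p = 0.0186). With the load as covariate it was 1.51 (permutation p = 0.535), and without ALS 3, ALS 5, ALS 6 or ALS 8 the exact permutation p was 0.0523. ALS 4, which had few circles on chromosome 13, was again at 0. Pde7b had 5 split reads in ALS 2, 2 in ALS 6 and 23 in Control 2, so its highest value was in a control, and the difference was 0.38 (exact permutation p = 0.861), which was -0.23 without ALS 2 and 1.21 without Control 2. Pde8b had circles in controls only, with 2 split reads in Control 1 and 9 in Control 9, and its difference of -1.28 was the lowest of the group (exact permutation p = 0.474). It was -0.59 without Control 9, -0.83 without Control 1 and -2.47 with the load as covariate. Pde4a had 5 split reads in ALS 7 and Pde8a had 2 in ALS 1, and neither had a circle in a control. Over the 6 cAMP PDEs the median difference was 0.84, and 3 of them had a circle in a control.

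PDEs that take both cAMP and cGMP had the highest median difference of any class, 3.32 over 6 genes. They also had the highest median length of any class, 322 kb. Over all genes the median difference was 1.82 at 200 to 500 kb and 3.11 above 500 kb, and the part of length in the class value was not tested. Pde10a (chr17:8525372-8986648, plus strand, 461 kb) had 2 split reads in ALS 2, 744 in ALS 5, 79 each in ALS 6 and ALS 7, and 5 in ALS 9, and none elsewhere. Its mean was 4.66 ± 5.03 (SD, n = 9), with an exact permutation p of 0.0108 for the difference from controls. The call of Pde10a was lost without any one of these 5 ALS libraries or any one control, in 15 of 19 cases, and without a control the difference stayed at 4.66, whereas Adcy2 and Pde4b kept theirs in all 19. With the load as covariate the difference of Pde10a was 10.3 (permutation p = 0.00136).

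Pde1a (chr2:79834453-80129458, 295 kb), a calcium and calmodulin dependent PDE, had the largest difference of the 50 genes. Its split reads were 21 in ALS 1, 1112 in ALS 2, 5 in ALS 3, 3 in ALS 7 and 15658 in ALS 9. The value of ALS 9 was 4.00% of all split reads on genes in that library and 99.8% of those on signalling genes. The mean of 5.77 ± 6.65 (SD, n = 9) against 0 in all controls had an exact permutation p of 0.0108 and it was not called (p = 0.0136 in the methods' t-test). Without ALS 9 the difference was 4.26 (exact permutation p = 0.0229). With the load as covariate it was 2.85 (permutation p = 0.486).

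Pde1c, of the same subfamily, had 3 split reads in ALS 2, 2 in ALS 3, 346 in ALS 4, 140 in ALS 6 and 3 in ALS 8, and none in controls. Its difference was 3.84 (exact permutation p = 0.0108) and 6.88 with the load as covariate (permutation p = 0.0174), and 3 of its 5 values lay at 3 split reads or fewer. Pde11a (chr2:75989141-76338774, 350 kb) had 3 to 18 split reads in 5 ALS libraries and 56 in Control 1. That control was higher than every ALS library, and the difference was 2.79 (exact permutation p = 0.0991). Without Control 1 it was 3.74 (exact permutation p = 0.0294), and it was 3.25 (exact permutation p = 0.0430) without ALS 3, ALS 4, ALS 5 or ALS 9, which had no Pde11a circle. It was 1.23 with the load as covariate (permutation p = 0.673). Pde3a had 20 split reads in ALS 1 and 35 in ALS 3, and Pde2a had 3 in ALS 1 and 4 in ALS 6, with no circle of either in a control. Gm45837 (chr7:101410886-101512819) covers Pde2a (chr7:101421691-101512827) except for its last few bases. It had the same numbers in these libraries, as nearly any circle on Pde2a is counted for both genes.

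Of the cGMP series, Pde5a had 24 split reads in ALS 3 and 6 in ALS 8, all of them on circles that also overlap 4930447N08Rik within the gene. Pde9a had 2 split reads in ALS 3 and 2 in Control 8, with a difference of 0.07 that was -3.28 with the load as covariate. Pde6h, an inhibitory subunit of the cone photoreceptor enzyme, had 3 split reads in ALS 5.

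**Figure D3:**
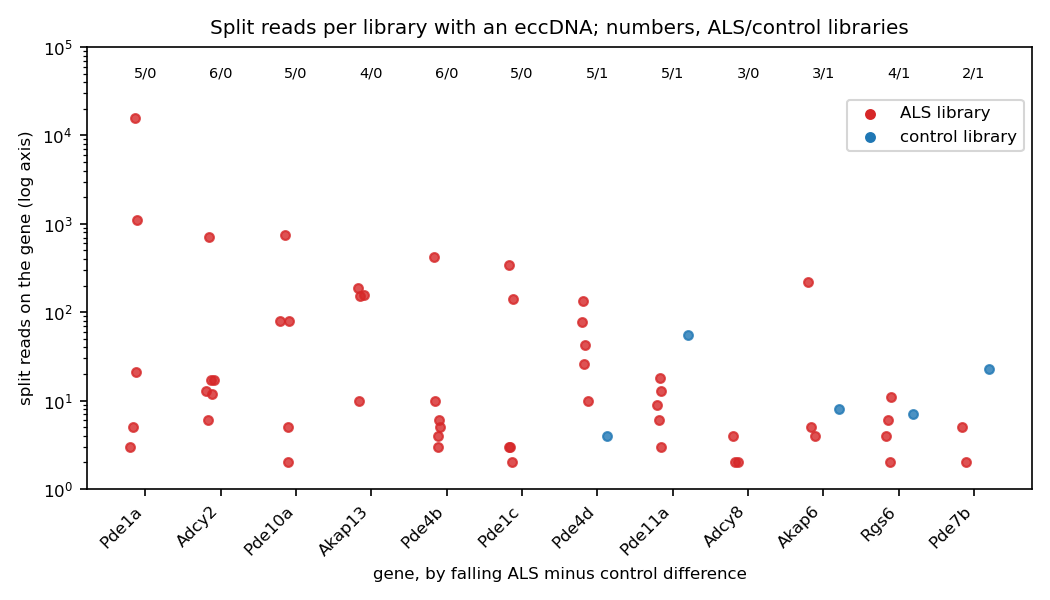
Split reads (log axis) in each library with a circle for the 12 genes found in 3 or more libraries, with red for ALS and blue for control and the number of libraries above each gene. Several genes have 1 or 2 libraries far above the rest, up to 15658 for Pde1a, and for Pde11a and Pde7b the control value is the highest.

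Akap13, an anchor of PKA, had circles in 4 ALS libraries and in no control. It had 10 split reads in ALS 1, 186 in ALS 3, 151 in ALS 6 and 155 in ALS 7, and 3 of its 4 values lay between 151 and 186. The difference was 4.55 (exact permutation p = 0.0325), and with the load as covariate 2.10 (permutation p = 0.534). The exact permutation p of Akap13 was 0.0686 without ALS 1, ALS 3, ALS 6 or ALS 7. It was 0.0823 without any one control, where the difference stayed at 4.55. Without a control the groups are equal in size, so that the opposite tail, which did not count before, raised p together with the smaller group. Akap6, which anchors PKA at the nuclear envelope of muscle and neurons, had 222 split reads in ALS 1, 4 in ALS 3, 5 in ALS 5 and 8 in Control 9, with a difference of 1.82 (exact permutation p = 0.249) that turned to -2.68 with the load as covariate and was 0.74 without ALS 1 (exact permutation p = 0.559). Akap9, of the Golgi and centrosome, had 7 split reads in Control 1 and none in ALS, with a difference of -0.77 (exact permutation p = 1.0). With the load as covariate the difference of Akap9 was -2.65 (permutation p = 0.132), and without Control 1 it has no circle. Akap7 had 5 split reads in ALS 7 and Akap10 had 25 in ALS 3. The median difference of the 5 anchors was 1.21.

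For a few genes a small annotated unit inside an intron shows where a circle lay. In ALS 7, 141 of the 155 split reads on Akap13 (chr7:75455534-75754609, plus strand) fell on circles that also overlap Gm44694 (chr7:75707885-75709182, plus strand, 1298 bases), which touches no Akap13 exon. The circles of ALS 1, ALS 3 and ALS 6 did not reach it. In the same library, all 12 split reads on Rgs20 (chr1:4909576-5070285) fell on circles that overlap Gm37079 (chr1:4938576-4940710, minus strand, 2135 bases), which again touches no exon of its host. The central 300 bases of both units, from GRCm38 and on the strand of the unit, are shown because they tell where in 2 of the genes a circle lay. The edges of these circles are not known, and capitals mark CG.
Gm44694 in Akap13, chr7:75708384-75708683: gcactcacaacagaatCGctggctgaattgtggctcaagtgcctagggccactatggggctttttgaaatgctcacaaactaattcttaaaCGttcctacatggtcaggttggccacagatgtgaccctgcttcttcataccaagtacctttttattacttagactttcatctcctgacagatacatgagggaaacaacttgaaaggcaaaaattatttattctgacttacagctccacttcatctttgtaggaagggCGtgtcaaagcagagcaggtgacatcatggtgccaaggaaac
Gm37079 in Rgs20, chr1:4939493-4939792: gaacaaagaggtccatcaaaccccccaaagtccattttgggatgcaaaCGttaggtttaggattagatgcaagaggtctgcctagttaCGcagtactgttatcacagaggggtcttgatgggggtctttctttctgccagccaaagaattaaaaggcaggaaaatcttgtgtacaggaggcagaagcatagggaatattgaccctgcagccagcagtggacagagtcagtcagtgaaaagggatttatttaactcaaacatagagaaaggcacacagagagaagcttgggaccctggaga
The first stretch has 3 CG and a GC content of 43.7%, and the second has 2 CG and 46.0%. The whole of Akap13 has a GC content of 40.7% and that of Rgs20 is 41.1%. In Akap13, 26.7% of the bases are masked as repeats, and 46.6% in Rgs20.

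The PKA subunits Prkacb (catalytic), Prkar1b and Prkar2b (regulatory) each had circles in 2 ALS libraries and no control. Prkacb reached 87 split reads in ALS 4 and had 2 in ALS 9, while the others had 3 to 9. Their differences lay between 1.61 and 2.10, each with an exact permutation p of 0.211. With the load as covariate Prkar2b was the only gene of the group called lower in ALS, a fit in which 84 of all genes were called lower and 26 higher.

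None of the G protein subunits was called, beside 1.33% of all genes. Of the alpha subunits, Gna12 had 44 split reads in ALS 1 and 128 in ALS 3, Gnal 31 in ALS 3 and 5 in ALS 8, and Gnao1 13 in ALS 1 and 3 in ALS 9. Gnas, the stimulatory subunit that activates cyclases, had 109 split reads in ALS 5, and Gnat3, of taste cells, 4 in ALS 1. Gna14, of the Gq class, had 8 split reads in Control 4 and none in ALS (difference -0.77, exact permutation p = 1.0). With the load as covariate the difference of Gna14 was -0.42 (permutation p = 0.742). All 5 split reads of Gnal in ALS 8 lie on circles that also overlap Chmp1b, a gene within an intron of Gnal. Gnb1 was the only beta subunit, with 2 split reads in ALS 4 and 5 in ALS 9. The gamma subunits Gng2, Gng7 and Gng12 each had a circle in 1 ALS library, with 2, 2 and 91 split reads. For Gng2 the difference was 0.71 (exact permutation p = 0.474), which rests on 2 split reads in ALS 6, and with the load as covariate it was 2.70 (permutation p = 0.0444).

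All 8 RGS genes had a higher mean in ALS, beside 86.5% of all genes, and none was called, beside 1.33%. Rgs6, which is strong in heart and brain, was the most frequent, with 2 split reads in ALS 3, 11 in ALS 4, 6 in ALS 8, 4 in ALS 9 and 7 in Control 1. Its difference was 1.76 (exact permutation p = 0.152), and it turned to -0.18 with the load as covariate (permutation p = 0.929). The other RGS genes had circles in 1 or 2 ALS libraries and in no control. Rgs10 had 8 split reads in ALS 4 and 4 in ALS 9, Rgs17 23 in ALS 1 and 2 in ALS 9, Rgs22 4 in ALS 3 and 6 in ALS 4, and Rgs3 3 in ALS 1 and 2 in ALS 4. Rgs12 had 11 in ALS 3 and Rgs7 2 in ALS 4. The median difference of the 8 RGS genes was 1.52, and 2 of the 6 split reads of Rgs6 in ALS 8 and both in ALS 3 also lie on Gm29530. Among the 3 genes outside these classes, Rgs7bp had 91 split reads in ALS 3 and 5 in Control 4, with a difference of 0.55 that was -4.57 with the load as covariate and -0.77 without ALS 3. Pde4dip, a centrosome protein that binds Pde4d, had 7 in ALS 2 and 10 in Control 1, with a difference of 0.03 (-2.05 with the load as covariate), and Adcyap1r1, the receptor of the peptide PACAP, had 2 in ALS 6.

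How often a gene was found went with its length. All 12 genes with a circle in 3 or more libraries were longer than 200 kb, and of the 15 genes above that length only Pde3a, Pde8b and Rgs7 were found in fewer. Over all genes, 726 of the 1276 found in 3 or more libraries were above 200 kb. Of all genes above that length, 70.5% were found in 3 or more. The 15 long genes held 56 of the 102 ALS pairs, and over all genes those above 200 kb held 3359 of 11710. They were found in a mean of 3.73 ALS and 0.467 control libraries, while all genes above 200 kb were found in 3.26 and 0.758. Their median difference was 2.79, against 2.02 for all genes of that length. Over the whole group 24.0% of genes were found in 3 or more libraries, against 15.3% of all genes, and the median length was 133 kb against 49.3 kb. The part of length in the difference between the group and the table was not tested.

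**Figure D4:**
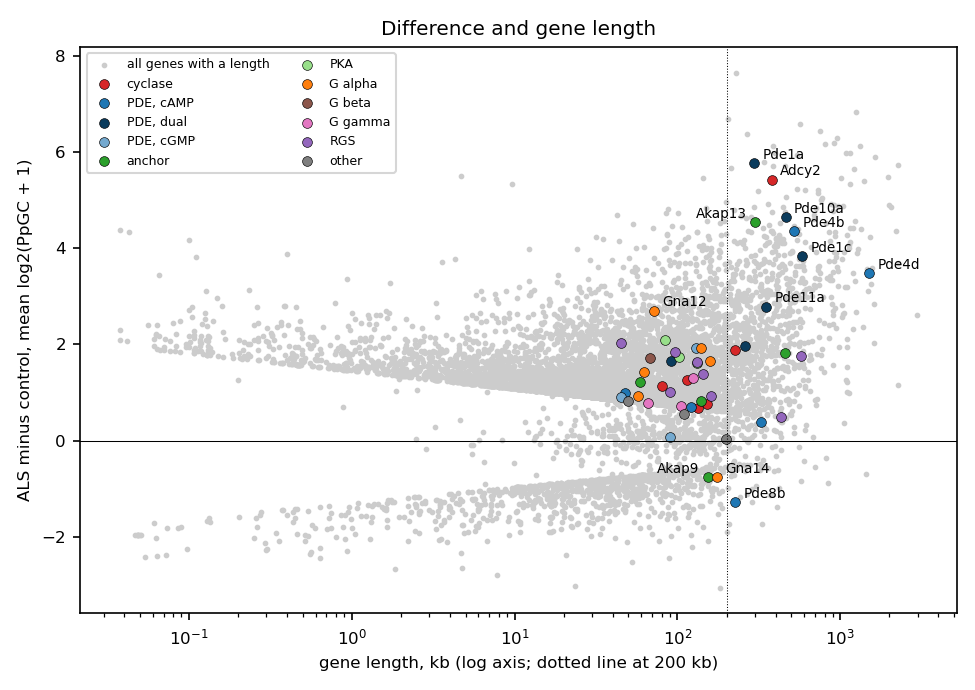
Difference of mean log2(PpGC + 1), ALS minus control (vertical axis), against gene length in kb (log axis) for all genes with a length (grey) and the 50 signalling genes by class (colour). Of the 50 coloured genes, those with differences above 3 lie to the right of the dotted line at 200 kb, and Akap9, Gna14 and Pde8b lie below 0.

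The annotation holds 115 protein-coding genes with such names, and 65 of them have no row in the table used here. Those with a row had a median length of 133 kb and those without of 22.8 kb. Of the 55 genes up to 50 kb, 4 had a row (7.27%), and of the 21 genes of 100 to 200 kb, 19 had (90.5%). Over all protein-coding genes the same shares were 15.4% and 76.4%. The other 4 beta and 7 gamma subunits, each under 50 kb, had no row, and neither did the cyclases Adcy4, Adcy6, Adcy7 and Adcy10. Gnaq, at 255 kb, was the longest gene without a row. The median GC content was 43.4% for genes with a row and 46.4% for those without, and it was 43.3% over all genes of the table.

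**Figure D5:**
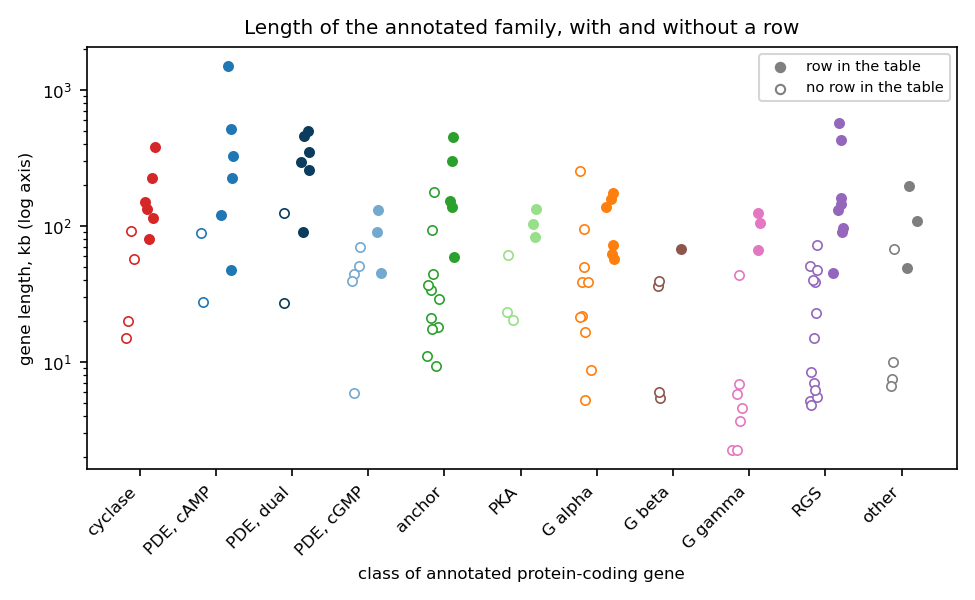
Length in kb (log axis) of the 115 annotated protein-coding genes of the family by class, filled for genes with a row in the table and open for the 65 without. In each class the open points lie mostly below the filled ones, and Gnaq at 255 kb is the longest open point.

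When a circle was present, the median was 6 split reads over the 102 ALS values (2 to 15658) and 7.5 over the 12 control values (2 to 56), and over all genes it was 7 in both groups. In ALS, 47 of the values (46.1%) were at 5 split reads or fewer, as were 43.6% of the values of all genes, and 14 were above 100. A pair of ALS libraries shared a median of 3 signalling genes (0 to 7), and 2 of the 36 pairs shared none, while 44 of 45 control pairs shared none, among them every pair with 1 of the 5 controls that lacked such circles. Of all genes with a circle in either library, a pair shared 6.31% to 13.5% in ALS and 0 to 6.15% in controls.

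Other genes of the pathway were followed with a list of 69, which covers effectors, cAMP-gated channels, CREB factors, receptor kinases, arrestins, phospholipases and the cGMP branch. Of these, 33 had a row, 28 of them had a higher mean in ALS (86.5% of all genes did), and none was called (1.33% of all genes were). Their median difference was 1.02, beside 1.19 for all genes. Prkg1, the cGMP-dependent kinase (1201 kb), had circles in 7 ALS and 4 control libraries. Its split reads went up to 15105 in ALS 5 and 580 in Control 1, the groups overlapped, and the difference of 3.49 (exact permutation p = 0.113) turned to -3.52 with the load as covariate. It was 2.24 without ALS 5 (exact permutation p = 0.232) and 4.47 without Control 1 (exact permutation p = 0.0204). Plcb1, a phospholipase driven by Gq (689 kb), had 59 split reads in ALS 1, 6 in ALS 6, 3 in ALS 7, 23 in ALS 8 and 10702 in ALS 9, and none in controls, with a difference of 4.61 (exact permutation p = 0.0108). Plcb4, of the same family, had 3, 6 and 44 split reads in 3 ALS libraries and 2 and 505 in 2 controls, with a difference of 0.56 (exact permutation p = 0.754) that was -0.29 without ALS 2 and 1.77 without Control 8. The mouse Sod1 gene had a circle in 1 ALS library, which checks nothing about the human transgene.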

How the data were processed

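EccDNA was measured in cervical spinal cord, with 1 library per animal (9 ALS and 10 control). The authors mapped paired ends to mm10 with Circle_Finder, merged circles within 10 bp, removed those below 2 split reads and assigned the rest to GENCODE genes (release not given in the sources used here) with bedtools. They deposited log2(PpGC + 1) values, scaled for gene length but not between samples, so that a difference in sequencing depth or RCA yield would enter every value. A depth per library is not part of the table, and the split reads on genes ranged from 3583 to 391395.

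The values were used as deposited, and 91.1% of them are 0. Gene positions came from GENCODE M21 (mm10) for 8088 of 8336 genes, and the length of Pde1c came from RefSeq GRCm38.p6, as did the promoter table. With the length factor undone, 98.9% of values above 0 came out as whole split reads (tolerance 0.02). Student's test, for which the methods give no sides, was taken as two-sided with Benjamini-Hochberg adjustment over all genes of the table. Single genes were tested by exact permutation over 92378 assignments, on the absolute difference of means. Because the groups differ in size, only the ALS tail counts for a gene with circles in ALS only. Its p then depends on the number of ALS libraries with a circle and not on split reads. For a gene with circles in controls only, both tails count, so the 2 directions are not treated alike. The load was added as a covariate with 100000 permutations of the residuals. P-values cover the spread between animals, library preparation included. Genes named were those called, Adcy2, Pde4b, Akap13 and Gng2, those with circles in 3 or more libraries or in any control, the 3 lowest differences and, of the other pathway genes, the 3 found in most libraries. Further genes are named to account for all 50. The genes and lists were chosen with earlier results of these data known. Alternatives covered the test and its threshold, pairing, load, totals, length scaling, pseudocount, presence, detection limits and leaving out each library. The tests were checked on simulated normal values without zeros, which does not show how they behave on values that are mostly 0. Python 3.11.15, SciPy 1.17.1, pandas 2.3.3, R 4.3.3 and limma 3.58.1 were used.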

Additional observations from a re-analysis of the deposited data

Results flagged for a closer look

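Of 36 groups of 9 or 10 libraries, 18 held a library that stood apart from the rest by Dixon's test at the 95% level, which chance does for about 1 group in 20. In 14 of the 18 this library was the only one above 0, a case in which the test always marks it. Most of these values were in controls, and all gene values here are log2 PpGC.

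Control 1 stood apart for Pde11a (9.47), Pde4dip (7.81), Akap9 (7.67), Rgs6 (5.78) and, in the other pathway list, Prkg1 (11.07), and also in having 5 of the signalling genes with a circle. Control 2 did so for Pde7b (8.29) and Pde4d (3.68), Control 4 for Rgs7bp (7.68) and Gna14 (7.67), Control 8 for Plcb4 (12.62) and Pde9a (6.64), and Control 9 for Akap6 (6.30). In the ALS group ALS 3 stood apart for Rgs7bp (11.85) and Pde9a (6.64), ALS 2 for Pde4dip (7.30), and ALS 6 for Gng2 (6.42) and for the share of signalling genes among its genes with a circle (1.59%).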

How the results depend on the processing

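Of the 50 genes, 3 were called as reported (111 of all genes), 7 with limma (166), 7 with Student p under 0.05 (350), 7 with one-sided p under 0.01 (189, chosen after seeing the data), and 0 with p under 0.001 (29), with adjustment (6) or with a pseudocount of 100 (9). The exact p under 0.01 called 2 (68), presence 2 (57) and the replicate block 2 (54), each time without Pde10a, and equal totals called 4 (80), with Pde1a added. Without gene length scaling 1 gene was called, Adcy2 (71 of 8088), and with the load as covariate 1 was called higher, Pde10a (26 of all genes), and 1 lower, Prkar2b. Leaving out each library gave 2 to 5 calls (85 to 133 of all genes). The mean number of signalling genes with a circle was 10.1 higher in ALS, 4.13 higher counting log2 PpGC of at least 8 and 6.32 higher counting at least 5 split reads, while its share differed by 0.419 to 0.654 percentage points under every setting run.

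The replicate numbers were taken only as names of the animals. The deviations of the 9 numbered pairs correlated between -0.02 and 0.02. In 2 of the 9 the best-correlated control of the same number range had the same number. With 91.1% of values at 0, such correlations cannot tell whether the numbers pair animals or mark a shared batch. With the replicate block the exact permutation p was 0.0625 for Pde10a, Pde1a, Pde1c, Pde4d and Plcb1 and 0.125 for Akap13, the smallest their 5 or 4 pairs above 0 allow, while the differences were 4.66, 5.77, 3.84, 3.45, 4.61 and 4.55. By presence Pde4d had a Fisher's exact p of 0.0573.

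With the load as covariate the differences of Pde4b (-0.90), Akap6 (-2.68), Rgs6 (-0.18), Pde4dip (-2.05), Pde9a (-3.28), Rgs7bp (-4.57) and Prkg1 (-3.52) turned negative, while that of Gng2 rose to 2.70 (permutation p = 0.0444). Pde4dip also turned with the replicate block (-0.057), without length scaling (-0.013) and with the pseudocount (-0.018), Pde7b (-0.083) and Plcb4 (-0.19) with the pseudocount, and Pde9a (-0.072) with equal totals. Leaving out single libraries moved Pde4dip from -0.78 to 0.81, Pde7b from -0.23 to 1.21, Pde9a from -0.66 to 0.74, Rgs7bp from -0.77 to 1.32 and Plcb4 from -0.29 to 1.77. The causes were not tested. Circles below 2 split reads are not seen, and 17 of the 102 ALS values are at that limit.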
